A study of Mus musculus with 9 samples.

Results

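Interferon-stimulated genes are the genes a cell switches on when type I interferon reaches its receptor, and 44 of them were followed here as a list of given symbols, from Stat2 through the Ifit, Oas, Mx, Trim, Parp and GTPase genes to Ifi44. The symbols were mapped from the Ensembl identifiers of the count table, and all 44 were found among its 53465 genes. All 44 also entered the fit of 12610 genes that passed a filter on low counts. Of the 44, 42 passed the same filter on the 6 sorted libraries alone, and Isg20 and Ifi44 passed through BMDM.

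The study profiled mRNA of mouse macrophages in 3 groups of 3 libraries. Lining macrophages (libraries A, B and C) were CD45+CD11b+F4/80+GFP+ cells sorted from hind paw synovial tissue of healthy Cx3cr1-GFP mice, in which green fluorescent protein reports the fractalkine receptor gene. Interstitial macrophages (D, E and F) were the CD45+CD11b+F4/80+GFP- cells of the same tissue and strain. Bone marrow-derived macrophages (BMDM; G, H and I) were differentiated for 5 days in MCSF-conditioned medium from marrow of C57BL/6 mice, and MCSF is the growth factor on which macrophages depend. Age, sex and the number of reporter copies are not stated in the labels used here, and no group received interferon or another stimulus per the labels. The comparisons with BMDM differ in tissue, strain, sorting and culture at once, and these cannot be told apart. The labels do not say whether the libraries of a group come from separate animals, so p-values measure the spread between these libraries, which may be technical. The 3 groups share the estimate of spread of each gene, so the p-value of a comparison also draws on the remaining group.

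As background, type I interferons bind the Ifnar1 and Ifnar2 receptor chains, and the kinases Jak1 and Tyk2 then phosphorylate Stat2. Stat2 acts with Irf9 on interferon-stimulated response elements, short promoter sequences built on repeated GAAA. The products of the induced genes sense, degrade or sequester viral nucleic acid and tag proteins with the ubiquitin-like Isg15, and macrophages hold a low level of many of them without infection.

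Library totals ran from 2194920 to 4693755 counts in A, C, D and F, were 11137451 in B and 10807462 in E, and were 19427273 to 22499823 in BMDM. The leukocyte and macrophage genes Ptprc, Itgam, Adgre1 and Csf1r were detected in all 9 libraries, and Cx3cr1, the gene behind the reporter, was at 663 to 775 CPM in lining, 2.66 to 7.86 CPM in interstitial and 236 to 311 CPM in BMDM. A floor of 3 counts was 0.273 to 1.45 CPM in a sorted library and 0.13 to 0.149 CPM in a BMDM library. Reads carry no molecular identifiers, so floors and intervals cover counting error only.

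The response element core, GAAA followed by any 2 bases and a further GAAA, was searched on both strands of RefSeq promoter windows (GRCm38.p6), which run from 250 bases before to 50 bases after an annotated start. A window was at hand for 33 of the 44 members. The motif occurred in 21 of these 33, or 63.6%, against 1079 of all 27025 genes with a window (3.99%) and 382 of the 9700 tested genes with one (3.94%). Matches can overlap each other in a run of GAAA repeats. These windows are printed because they carry the element in genes that sit at opposite ends of the results below: Isg15, Oas3, Oas1a, Oas1g and Irgm1, which were lower in both sorted groups than in BMDM, Ifit1, which was not called, and Gbp2 and Gbp3, which were higher in at least 1 sorted group. Each is written on the gene's own strand with every base of a match in capitals, and a match in the other orientation reads TTTC, any 2 bases, TTTC. The first 4 and those of Ifit1 and Gbp3 are the last 130 bases before the start, and those of Irgm1 and Gbp2 are 30 bases around the match. For Irgm1 and Gbp2 the match lies inside the annotated span of the gene used for counting.
Isg15: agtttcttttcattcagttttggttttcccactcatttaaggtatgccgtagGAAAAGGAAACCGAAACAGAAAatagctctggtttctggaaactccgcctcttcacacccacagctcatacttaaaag
Oas3: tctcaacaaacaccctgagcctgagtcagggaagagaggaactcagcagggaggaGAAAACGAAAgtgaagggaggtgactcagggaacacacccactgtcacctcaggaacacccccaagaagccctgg
Oas1a: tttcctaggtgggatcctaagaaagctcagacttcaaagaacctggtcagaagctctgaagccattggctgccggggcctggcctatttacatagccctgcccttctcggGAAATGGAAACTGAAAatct
Oas1g: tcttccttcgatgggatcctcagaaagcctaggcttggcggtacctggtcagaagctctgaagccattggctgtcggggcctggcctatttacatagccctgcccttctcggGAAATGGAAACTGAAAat
Irgm1: gtttcaaGAAATAGAAACCGAAActgattc
Ifit1: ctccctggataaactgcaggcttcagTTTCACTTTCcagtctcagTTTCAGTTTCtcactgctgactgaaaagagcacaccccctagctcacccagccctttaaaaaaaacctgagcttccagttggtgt
Gbp2: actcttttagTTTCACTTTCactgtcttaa
Gbp3: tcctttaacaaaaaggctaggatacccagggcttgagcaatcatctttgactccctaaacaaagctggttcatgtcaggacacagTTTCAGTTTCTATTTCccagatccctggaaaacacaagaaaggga
The printed stretches lie at chr4:156200819-156200948 (Isg15, minus strand), chr5:120777660-120777789 (Oas3, minus), chr5:120907526-120907655 (Oas1a, minus), chr5:120887614-120887743 (Oas1g, minus), chr11:48871428-48871457 (Irgm1, minus), chr19:34640759-34640888 (Ifit1, plus), chr3:142620594-142620623 (Gbp2, plus) and chr3:142559914-142560043 (Gbp3, plus). The Oas1a and Oas1g stretches matched at 114 of 128 bases when shifted by 2 bases, and the same element lies close to both starts. Isg15 held 3 overlapping matches in its element. A match describes letters in a window, and binding was not measured.

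The element occurred both in members called lower than in BMDM and in members not called lower. Of the members with a window, it was present in 15 of the 26 that were called lower in lining than in BMDM and in 6 of the 7 that were not. Of these 7, only Gbp2 was called higher, and Ifit1, Ifit3, Herc6 and Igtp had every lining library below BMDM. The element was present in 13 of the 22 that were called lower in interstitial macrophages than in BMDM and in 8 of the 11 that were not. Of these 11, only Gbp2 and Gbp3 were called higher.

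Summed over the 44 members, lining libraries held 1199 to 1669 CPM, interstitial libraries 1499 to 1738 CPM and BMDM libraries 3781 to 4001 CPM. CPM (the usual counts-per-library unit) are scaled here by edgeR's TMM factors. Every BMDM library thus held more than any sorted library, and the lining and interstitial ranges overlapped.

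**Figure D1:**
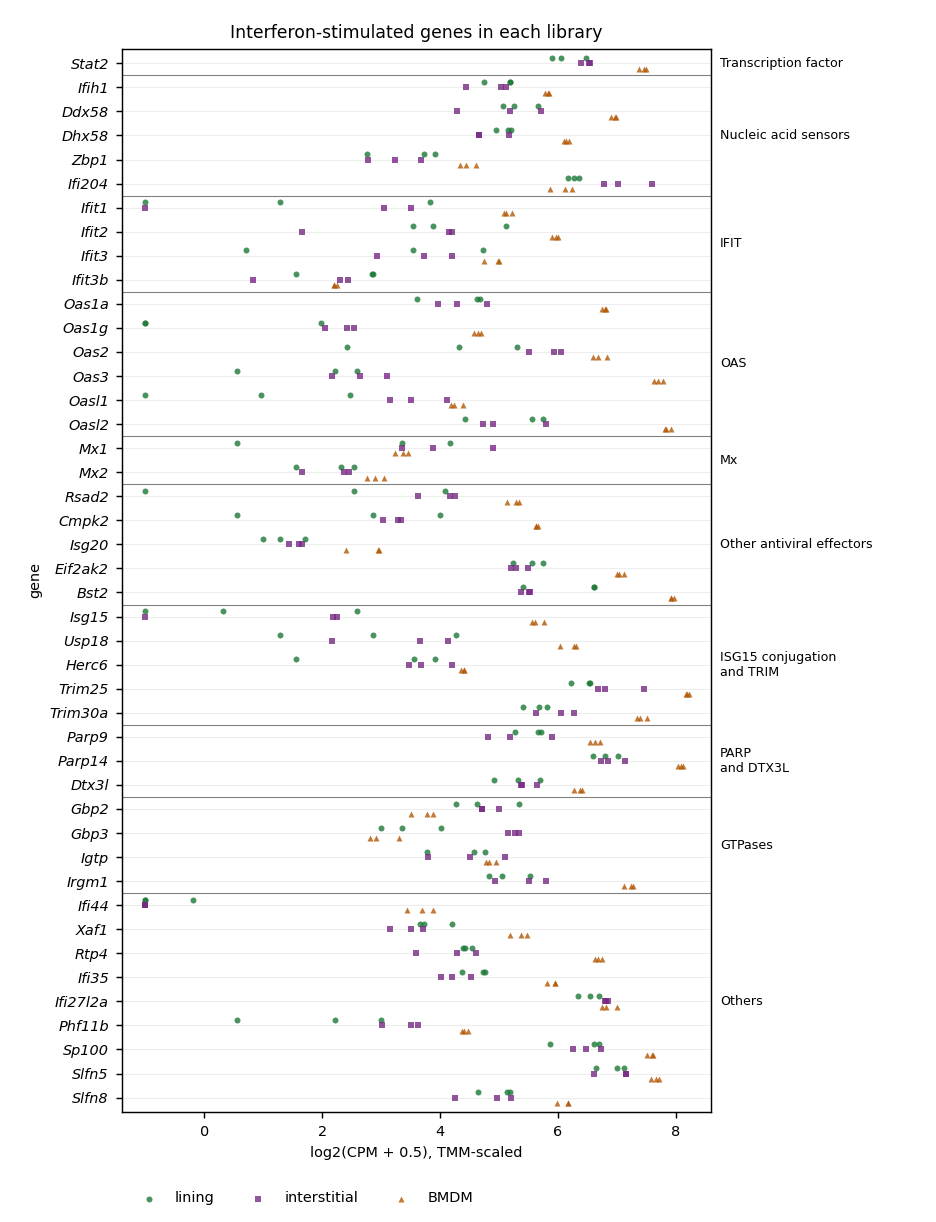
Level of each of the 44 genes in each library, as log2(CPM + 0.5) with genes grouped by role; circles are lining, squares interstitial and triangles BMDM libraries, 3 each. BMDM libraries lie to the right for most genes, Gbp2 is lowest in BMDM, Gbp3 and Ifi204 are highest in interstitial libraries, and the sorted libraries are spread more widely than the BMDM ones.

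A gene was called when its adjusted p from edgeR's quasi-likelihood test, with Benjamini-Hochberg adjustment over all 12610 genes, was under 0.05. In lining against BMDM, 32 members were lower and 1 was higher, Gbp2, with 11 not called. The 32 include Isg20 and Ifi44, which passed the low-count filter only through BMDM. Over all genes tested, 20.5% were lower and 23.1% higher in this comparison, so the members' share called lower (72.7%) was well above the background and their share called higher (2.27%) below it. The members were chosen with earlier results of these data known. These shares, and those of the comparisons below, therefore describe the list and are not separate support. The median log2 fold change of the members was -1.50, beside 0.000139 for all genes tested. Libraries of lining and BMDM did not overlap for 39 members that were lower and 1 that was higher, against 33.9% and 29.2% of all genes.

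In interstitial against BMDM, 28 members were lower and 3 were higher (Ifi204, Gbp2 and Gbp3), with 13 not called. The 28 include Ifi44, which passed the low-count filter only through BMDM. Over all genes tested, 21.3% were lower and 23.4% higher, beside 63.6% and 6.82% of the members. The members' median log2 fold change was -1.24, and that of all genes was -0.0115. Libraries did not overlap for 37 members that were lower and 3 that were higher, against 33.8% and 28.4% of all genes. The comparisons of lining and of interstitial macrophages with BMDM share the BMDM libraries, so they are not independent of each other.

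In lining against interstitial macrophages, edgeR called 2 members lower in lining, Gbp3 and Ifi204, and 0 higher. Over all genes tested, 2.05% were lower and 3.74% higher, and 5.79% either way, so 2 of 44 (4.55%) is a share of few genes close to the background. At an unadjusted p under 0.05, 6 members had lower values and 1 (Bst2) a higher one, beside 8.95% and 10.4% of all genes. DESeq2 called 5 lower and 1 higher, beside 4.67% and 5.62% of all genes. limma-voom called 2 lower and 1 higher, beside 2.7% and 4.9% of all genes, with Bst2 the higher one in both tools. The median log2 fold change was -0.07 for the members and -0.01 for all genes, and the median SE of a member was 0.31. Libraries did not overlap for 8 members with lower values in lining (Ifi204, Oas1g, Oas2, Oasl1, Trim25, Gbp3, Ifi27l2a and Phf11b), against 8.66% of all genes. For the other direction the count was 0, against 9.92% of all genes. A member that was not called is not shown to be alike in the groups.

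**Figure D2:**
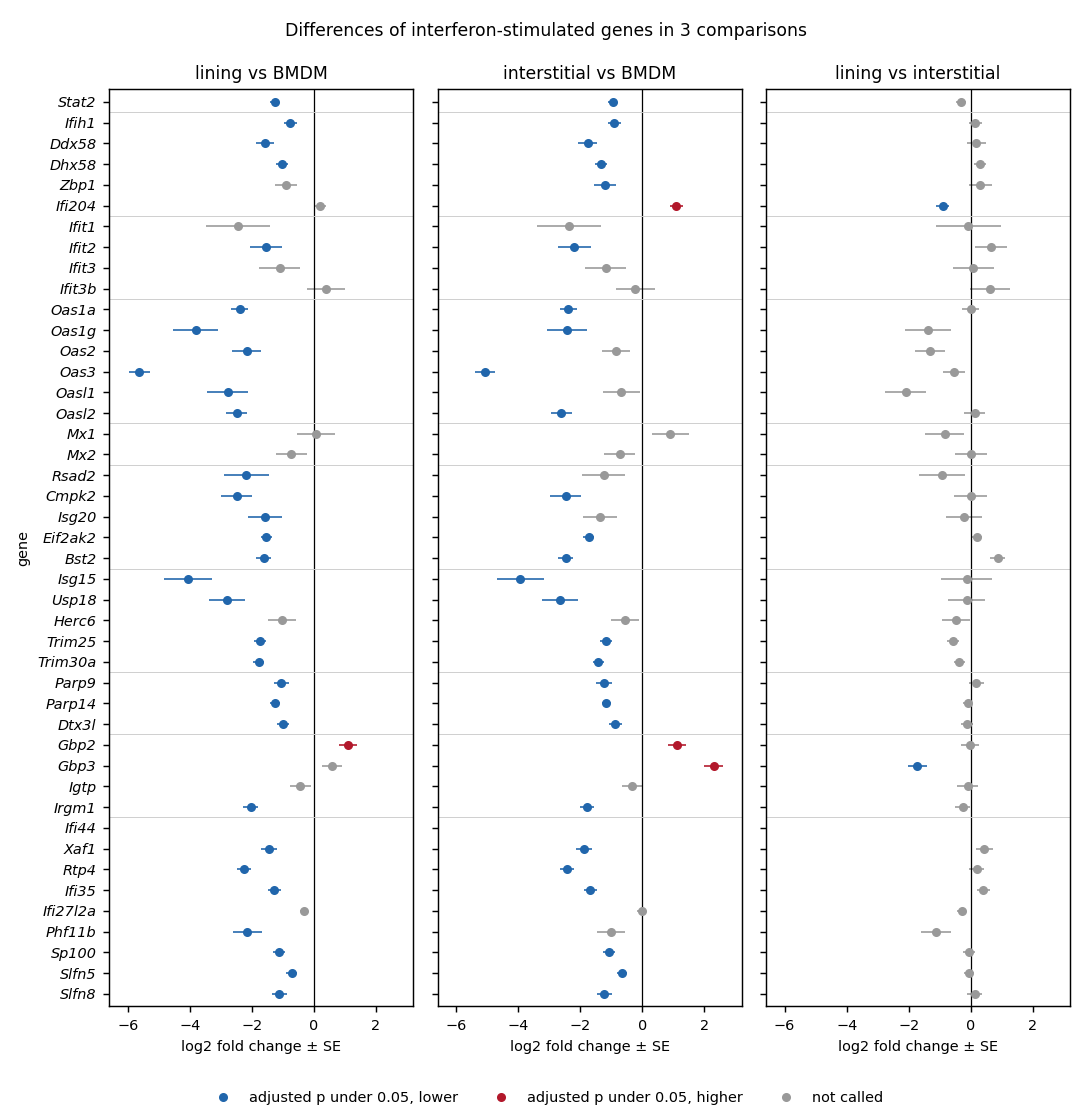
Log2 fold change with its SE for 43 members in lining against BMDM, interstitial against BMDM and lining against interstitial macrophages; blue and red are calls at an adjusted p under 0.05 and grey is not called. Ifi44 is left out because its counts in sorted libraries were 1 and 0. Most points lie left of 0 against BMDM, and only Ifi204 and Gbp3 are coloured between the sorted groups.

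Per kb of exon, the members differed widely in level. Ifi27l2a, a short gene of the interferon alpha-inducible protein family, stood first in lining and interstitial macrophages and second in BMDM, with a mean CPM per kb of 199 in lining, 244 in interstitial and 249 in BMDM. Bst2, which encodes the virion-tethering protein tetherin, had 87.0 in lining, 48.3 in interstitial and 269 in BMDM. Isg15 ranked 32 of 44 in lining, 31 in interstitial and 3 in BMDM, with a mean CPM per kb of 2.77 in lining, 3.66 in interstitial and 65.5 in BMDM. Oas3 ranked 42 in lining, 43 in interstitial and 11 in BMDM, and Gbp3 ranked 28 in lining, 11 in interstitial and 40 in BMDM. The order of the members was thus not the same in the sorted cells and in culture.

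Stat2, the transcription factor of the list (ENSMUSG00000040033, chr10:128270559-128292849, plus strand), was lower in both sorted groups. It was at 59.2, 88.4 and 66.1 CPM in lining, 91.8, 83.7 and 92.2 CPM in interstitial and 175, 166 and 180.1 CPM in BMDM. Against BMDM, Stat2 had a log2 fold change of -1.27 ± 0.16 (SE, edgeR adjusted p = 4.95e-05) in lining and -0.96 ± 0.16 (SE, edgeR adjusted p = 0.000377) in interstitial macrophages. All 6 sorted libraries lay under all 3 BMDM libraries, and the highest lining library reached into the interstitial range. Against interstitial macrophages the lining value was -0.31 ± 0.16 (SE, edgeR adjusted p = 0.322).

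Nucleic acid sensors did not move as 1 group. Of the 5, 3 were called lower in lining than in BMDM and 4 lower and 1 higher in interstitial macrophages. Ddx58 encodes RIG-I, a sensor of viral RNA, and was at 37.8, 50.1 and 33.0 CPM in lining, 35.9, 52.0 and 19.1 CPM in interstitial and 126, 125 and 119 CPM in BMDM. On the log2 scale Ddx58 differed from BMDM by -1.59 ± 0.29 (SE, edgeR adjusted p = 0.000923) in lining and by -1.77 ± 0.29 (SE, edgeR adjusted p = 0.000414) in interstitial macrophages. Dhx58, its regulator LGP2, was at 36.4, 35.0 and 30.4 CPM in lining, 35.5, 24.8 and 24.6 CPM in interstitial and 69.8, 72.3 and 67.9 CPM in BMDM. Its log2 fold change against BMDM was -1.04 ± 0.19 (SE, edgeR adjusted p = 0.000882) in lining and -1.33 ± 0.19 (SE, edgeR adjusted p = 0.000146) in interstitial macrophages. For both genes every sorted library was below every BMDM library, and lining and interstitial libraries overlapped.

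Ifi204 (ENSMUSG00000073489, chr1:173747293-173766943, minus strand), a DNA-binding protein of the p200 family, was the member of this group with a different pattern. It was at 71.3, 76.8 and 81.5 CPM in lining, 194, 129 and 109 CPM in interstitial and 74.5, 68.9 and 57.5 CPM in BMDM. All interstitial libraries were above all others, and lining overlapped BMDM. The log2 fold change was -0.90 ± 0.21 (SE, edgeR adjusted p = 0.0233) in lining against interstitial macrophages, 0.19 ± 0.20 (SE, edgeR adjusted p = 0.47) in lining against BMDM and 1.10 ± 0.20 (SE, edgeR adjusted p = 0.000907) in interstitial against BMDM. The lining against interstitial call ended without lining A (adjusted p = 0.0959), without B (0.079) and without C (0.0512). It also ended in an edgeR fit of the 6 sorted libraries alone (adjusted p = 0.0503) and in limma-voom with group weights (adjusted p = 0.137). Of the 101-base stretches of its transcripts, 10.6% also occur in other genes, mostly Ifi211, so its counts are less certain. Library D, the highest for Ifi204, was also the highest for F13a1, a monocyte and resident macrophage gene (9071 CPM), and for the plasmacytoid dendritic cell marker Siglech (106 CPM). Whether other cells contribute to Ifi204 was not tested.

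Ifih1, the RNA sensor MDA5, was lower in lining (-0.76 ± 0.22 (SE, edgeR adjusted p = 0.0131)) and in interstitial macrophages (-0.91 ± 0.21 (SE, edgeR adjusted p = 0.00443)) than in BMDM. The lining call ended with counts thinned to the smallest library (adjusted p = 0.0538). Zbp1, a sensor of Z-form nucleic acid, was lower in interstitial macrophages (-1.21 ± 0.36 (SE, edgeR adjusted p = 0.0159)), though without BMDM G its adjusted p was 0.0715. In lining Zbp1 was not called (-0.91 ± 0.36 (SE, edgeR adjusted p = 0.0576)), and it was called without B, D, E or F (adjusted p = 0.0458, 0.04, 0.0478 and 0.0314). It was also called there in an edgeR fit of only the 6 libraries compared (adjusted p = 0.026).

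The Ifit genes, whose products bind viral RNA and block its translation, varied widely between sorted libraries. Ifit2 was the 1 of 4 called lower, in both sorted groups. It was at 11.2, 34.4 and 14.3 CPM in lining, 2.66, 17.9 and 17.2 CPM in interstitial and 62.1, 63.2 and 59.0 CPM in BMDM. Lining differed from BMDM by a log2 fold change of -1.55 ± 0.51 (SE, edgeR adjusted p = 0.0313), and interstitial macrophages by -2.19 ± 0.52 (SE, edgeR adjusted p = 0.00614). All sorted libraries were below BMDM, with B the highest of the sorted and D the lowest. The lining call ended without A, C, G, H or I (adjusted p = 0.0759, 0.096, 0.0823, 0.0826 and 0.0655). Without B the log2 fold change was -2.31.

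Ifit3 was at 11.2, 26.1 and 1.13 CPM in lining, 7.09, 17.8 and 12.7 CPM in interstitial and 31.7, 26.3 and 31.1 CPM in BMDM. Its log2 fold changes of -1.11 ± 0.65 (SE, edgeR adjusted p = 0.196) in lining and -1.19 ± 0.65 (SE, edgeR adjusted p = 0.164) in interstitial macrophages against BMDM were not called. Lining spanned values from near the floor to just under the level of BMDM. Without B the lining value was -2.39 (adjusted p = 0.0217), and without C the interstitial one reached an adjusted p of 0.0198. With only the 6 libraries compared in the edgeR fit, the interstitial one was called (adjusted p = 0.0167) and the lining one was not. Ifit3 and Ifit3b share 31.3% and 27.1% of their 101-base stretches, mostly with each other, so their separate counts are uncertain.

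Ifit1 was at 1.94, 13.6 and 0 CPM in lining, 0, 7.73 and 10.8 CPM in interstitial and 36.8, 33.5 and 34.0 CPM in BMDM, and neither sorted group was called (-2.46 ± 1.03 (SE, edgeR adjusted p = 0.084) in lining and -2.37 ± 1.02 (SE, edgeR adjusted p = 0.0904) in interstitial macrophages). Libraries C and D had no count of it while B had 143, and both sorted groups lay under BMDM. Without B the lining log2 fold change was -5.35. It was called in lining without B, D or F (adjusted p = 0.0071, 0.0162 and 0.0457) and in interstitial macrophages without B or C (0.0215 and 0.0302). With only the 6 libraries compared in the edgeR fit, Ifit1 was called in both (adjusted p = 0.02 in lining and 0.0209 in interstitial macrophages).

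The Oas genes held the member with the largest fitted log2 fold change against BMDM in both sorted groups other than Ifi44, Oas3. Products of the Oas1, Oas2 and Oas3 genes make the oligoadenylate messenger that activates RNase L, and Oasl1 and Oasl2 are related proteins. All 6 were called lower in lining than in BMDM, and 4 of 6 in interstitial macrophages. Oas3 (ENSMUSG00000032661, chr5:120753098-120777661, minus strand) was at 0.970, 5.54 and 4.13 CPM in lining, 3.99, 5.73 and 8.07 CPM in interstitial and 220.0, 208 and 198 CPM in BMDM. Against BMDM, Oas3 had a log2 fold change of -5.63 ± 0.34 (SE, edgeR adjusted p = 1.15e-07) in lining and -5.09 ± 0.32 (SE, edgeR adjusted p = 1.74e-07) in interstitial macrophages. These are 49.5-fold and 34.0-fold lower levels in lining and interstitial macrophages than in BMDM. Every sorted library was under every BMDM library by a wide margin, and sorted libraries held 2 to 63 counts of Oas3 against 4180 to 5088 in BMDM. Without B the lining value was -6.30.

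Oas1a, the gene nearest to Oas1g in sequence, was at 11.6, 24.2 and 25.2 CPM in lining, 15.1, 27.3 and 18.9 CPM in interstitial and 111, 113 and 106 CPM in BMDM. On the log2 scale Oas1a differed from BMDM by -2.39 ± 0.28 (SE, edgeR adjusted p = 2.59e-05) in lining and by -2.39 ± 0.27 (SE, edgeR adjusted p = 2.28e-05) in interstitial macrophages. Lining and interstitial libraries overlapped, and both lay below BMDM. Oas1g was at 0, 3.44 and 0 CPM in lining, 4.88, 3.64 and 5.31 CPM in interstitial and 23.4, 25.3 and 24.6 CPM in BMDM. Its log2 fold change against BMDM was -3.82 ± 0.72 (SE, edgeR adjusted p = 0.00114) in lining and -2.43 ± 0.66 (SE, edgeR adjusted p = 0.00979) in interstitial macrophages. All 36 lining counts of Oas1g were in library B, so its fold in lining rests on that library, and without B lining had no count. Interstitial libraries lay between lining and BMDM without overlap. Between the sorted groups Oas1g was not called (-1.39 ± 0.74 (SE, edgeR adjusted p = 0.336)), but it was without B (adjusted p = 0.00795). Oas1a and Oas1g share 40.6% and 31.0% of their 101-base stretches. Reads from the shared stretches can be lost from both genes, because multi-mapping reads were not counted.

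Oas2 and Oasl1 were lower in lining than in BMDM and were not called in interstitial macrophages. Oas2 was at 4.85, 38.8 and 19.5 CPM in lining, 60.3, 66.1 and 44.8 CPM in interstitial and 113, 96.5 and 101 CPM in BMDM, with -2.17 ± 0.48 (SE, edgeR adjusted p = 0.00487) in lining against BMDM and -0.86 ± 0.45 (SE, edgeR adjusted p = 0.151) in interstitial against BMDM. Oasl1 was at 1.45, 5.06 and 0 CPM in lining, 16.8, 8.37 and 10.8 CPM in interstitial and 20.4, 17.7 and 18.3 CPM in BMDM, with -2.79 ± 0.66 (SE, edgeR adjusted p = 0.00478) in lining and -0.68 ± 0.59 (SE, edgeR adjusted p = 0.374) in interstitial macrophages. For both genes the lining libraries were below the interstitial ones and these below BMDM, without overlap. The direct difference between lining and interstitial macrophages was -1.32 ± 0.48 (SE, edgeR adjusted p = 0.164) for Oas2 and -2.11 ± 0.67 (SE, edgeR adjusted p = 0.0958) for Oasl1, so neither was called. Without B these reached adjusted p of 0.025 and 0.0237, with log2 fold changes of -2.20 and -4.17. Against BMDM the lining values without B were -3.08 and -4.88. In interstitial macrophages Oas2 was called without A or B (adjusted p = 0.013 and 0.0469). It was also called there in an edgeR fit of only the 6 libraries compared (adjusted p = 0.00581), and Oasl1 was not. Oasl2 was lower in both sorted groups, with -2.49 ± 0.33 (SE, edgeR adjusted p = 0.000134) in lining and -2.62 ± 0.33 (SE, edgeR adjusted p = 8.75e-05) in interstitial macrophages.

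Neither Mx gene was called in any of the 3 comparisons by edgeR. Mx1, a gene of the dynamin-like GTPase family, was at 0.970, 17.4 and 9.76 CPM in lining, 9.75, 29.2 and 14.2 CPM in interstitial and 10.4, 8.89 and 9.87 CPM in BMDM. The log2 fold change was 0.05 ± 0.61 (SE, edgeR adjusted p = 0.954) in lining against BMDM, 0.90 ± 0.60 (SE, edgeR adjusted p = 0.249) in interstitial against BMDM and -0.85 ± 0.62 (SE, edgeR adjusted p = 0.506) in lining against interstitial macrophages. Sorted libraries spread on both sides of the BMDM libraries, with E highest and A lowest. limma-voom called Mx1 higher in interstitial macrophages than in BMDM (adjusted p = 0.0312). Mx2 had values of -0.73 ± 0.50 (SE, edgeR adjusted p = 0.263) in lining and -0.73 ± 0.49 (SE, edgeR adjusted p = 0.252) in interstitial macrophages against BMDM.

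Of the other 5 antiviral effectors, all 5 were called lower in lining than in BMDM and 3 in interstitial macrophages. Bst2 was at 97.0, 96.7 and 42.1 CPM in lining, 44.8, 40.7 and 45.5 CPM in interstitial and 239.9, 248 and 239.6 CPM in BMDM. Lining differed from BMDM by a log2 fold change of -1.62 ± 0.25 (SE, edgeR adjusted p = 0.000229), and interstitial macrophages by -2.48 ± 0.25 (SE, edgeR adjusted p = 9.36e-06). Lining A and B were about level with each other and above all interstitial libraries, whereas C lay among the interstitial ones. The difference of lining from interstitial macrophages was 0.86 ± 0.25 (SE, edgeR adjusted p = 0.0706) and was not called. Without C it was 1.16 (adjusted p = 0.000646).

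Cmpk2, a mitochondrial nucleotide kinase gene next to Rsad2 on chromosome 12, was at 0.970, 15.5 and 6.76 CPM in lining, 9.31, 9.55 and 7.65 CPM in interstitial and 50.2, 49.1 and 48.7 CPM in BMDM. Against BMDM, Cmpk2 had a log2 fold change of -2.48 ± 0.50 (SE, edgeR adjusted p = 0.00189) in lining and -2.48 ± 0.50 (SE, edgeR adjusted p = 0.00184) in interstitial macrophages. All sorted libraries were below BMDM, and without B the lining value was -3.63. Eif2ak2, the RNA-dependent kinase PKR, was lower in lining (-1.53 ± 0.17 (SE, edgeR adjusted p = 1.57e-05)) and in interstitial macrophages (-1.73 ± 0.17 (SE, edgeR adjusted p = 5.35e-06)).

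Rsad2, which encodes viperin, was at 5.33, 16.4 and 0 CPM in lining, 18.6, 17.4 and 11.9 CPM in interstitial and 40.0, 38.7 and 34.6 CPM in BMDM. It was lower in lining (-2.18 ± 0.72 (SE, edgeR adjusted p = 0.034)), with no count in C, and not called in interstitial macrophages (-1.25 ± 0.69 (SE, edgeR adjusted p = 0.172)). The lining call ended without A, G, H or I (adjusted p = 0.0812, 0.104, 0.0994 and 0.0822), and without B the value was -4.00. In interstitial macrophages Rsad2 was called without C (adjusted p = 0.0103) and in an edgeR fit of only the 6 libraries compared (adjusted p = 0.00258).

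Isg20, an RNA exonuclease gene, was low in all groups, at 1.94, 2.77 and 1.50 CPM in lining, 2.22, 2.64 and 2.55 CPM in interstitial and 7.22, 4.82 and 7.33 CPM in BMDM. It was lower in lining than in BMDM (-1.58 ± 0.56 (SE, edgeR adjusted p = 0.0373)) and not called in interstitial macrophages (-1.37 ± 0.54 (SE, edgeR adjusted p = 0.0586)). The lining call ended without A, C, G, H or I (adjusted p = 0.0559, 0.0581, 0.173, 0.0938 and 0.161). In interstitial macrophages it was called without A, B or C (0.0432, 0.041 and 0.0298) and in an edgeR fit of only the 6 libraries compared (adjusted p = 0.0187). Isg20 passed the low-count filter only through BMDM, where all 3 libraries were above all sorted ones.

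Isg15 and Usp18, which removes its product from proteins, were lower in both sorted groups than in BMDM. Herc6, which attaches it, was not called in either. Of the 5 genes of Isg15 conjugation and Trim ubiquitin ligases, 4 were called lower in lining and 4 in interstitial macrophages. Isg15 itself (ENSMUSG00000035692, chr4:156199424-156200818, minus strand), the ubiquitin-like modifier, was at 0, 5.54 and 0.751 CPM in lining, 0, 4.28 and 4.04 CPM in interstitial and 53.5, 48.4 and 46.6 CPM in BMDM. On the log2 scale Isg15 differed from BMDM by -4.06 ± 0.78 (SE, edgeR adjusted p = 0.00198) in lining and by -3.93 ± 0.77 (SE, edgeR adjusted p = 0.00203) in interstitial macrophages. Libraries A and D had no count of Isg15 and C had 2, and BMDM had 974 to 1237. The fold in lining therefore rests mostly on B, and without B the log2 value was -6.88.

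Usp18, the protease that removes Isg15 and restrains the interferon receptor, was at 1.94, 18.9 and 6.76 CPM in lining, 3.99, 12.2 and 17.0 CPM in interstitial and 78.6, 64.9 and 76.6 CPM in BMDM. Its log2 fold change against BMDM was -2.80 ± 0.59 (SE, edgeR adjusted p = 0.00344) in lining and -2.66 ± 0.58 (SE, edgeR adjusted p = 0.004) in interstitial macrophages. Every sorted library was below BMDM, and without B the lining value was -4.05. Trim25, a ubiquitin ligase that acts with RIG-I, was at 73.7, 92.9 and 91.2 CPM in lining, 110.4, 102 and 175 CPM in interstitial and 296, 286 and 290.1 CPM in BMDM. Lining differed from BMDM by a log2 fold change of -1.75 ± 0.20 (SE, edgeR adjusted p = 1.93e-05), and interstitial macrophages by -1.17 ± 0.19 (SE, edgeR adjusted p = 0.000382). The lining libraries lay below the interstitial ones without overlap, at -0.58 ± 0.19 (SE, edgeR adjusted p = 0.112) in the direct comparison, which was not called.

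Trim30a was lower in lining (-1.79 ± 0.18 (SE, edgeR adjusted p = 9.85e-06)) and in interstitial macrophages (-1.42 ± 0.18 (SE, edgeR adjusted p = 5.40e-05)) than in BMDM. Herc6, the main Isg15 ligase of the mouse, was not called, with -1.04 ± 0.45 (SE, edgeR adjusted p = 0.0797) in lining and -0.56 ± 0.44 (SE, edgeR adjusted p = 0.32) in interstitial macrophages. It was called in lining without B (adjusted p = 0.039). Of the 101-base stretches of Herc6, 10.3% are shared with an overlapping gene.

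The 3 genes of ADP-ribosylation, Parp9, Parp14 and the ubiquitin ligase Dtx3l that partners Parp9, were all lower in both sorted groups than in BMDM. Parp14, a mono-ADP-ribosyltransferase gene, was at 95.5, 129.6 and 110.4 CPM in lining, 106, 139 and 115 CPM in interstitial and 276, 261 and 271 CPM in BMDM. Against BMDM, Parp14 had a log2 fold change of -1.26 ± 0.15 (SE, edgeR adjusted p = 3.33e-05) in lining and -1.16 ± 0.15 (SE, edgeR adjusted p = 5.86e-05) in interstitial macrophages. Parp9 was at 38.3, 51.9 and 50.3 CPM in lining, 27.5, 59.0 and 35.9 CPM in interstitial and 105, 92.2 and 98.2 CPM in BMDM. On the log2 scale Parp9 differed from BMDM by -1.06 ± 0.24 (SE, edgeR adjusted p = 0.00413) in lining and by -1.24 ± 0.24 (SE, edgeR adjusted p = 0.00139) in interstitial macrophages. Dtx3l had -0.99 ± 0.20 (SE, edgeR adjusted p = 0.00173) in lining and -0.87 ± 0.20 (SE, edgeR adjusted p = 0.00352) in interstitial macrophages. No sorted library of the 3 genes reached a BMDM library, and lining and interstitial libraries overlapped.

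Interferon-inducible GTPases did not move one way against BMDM. Gbp2 was called higher in both sorted groups, Gbp3 higher in interstitial macrophages only, Irgm1 lower in both, and Igtp was not called. Guanylate-binding proteins and immunity-related GTPases act on the vacuoles of intracellular microbes, and many respond to interferon gamma more than to type I interferon. Gbp3 (ENSMUSG00000028268, chr3:142560026-142573209, plus strand) was at 9.70, 15.7 and 7.51 CPM in lining, 38.1, 39.8 and 35.0 CPM in interstitial and 9.34, 6.51 and 7.01 CPM in BMDM. All interstitial libraries were above all others, and lining and BMDM overlapped. The log2 fold change was -1.72 ± 0.32 (SE, edgeR adjusted p = 0.00708) in lining against interstitial macrophages, 0.58 ± 0.31 (SE, edgeR adjusted p = 0.152) in lining against BMDM and 2.30 ± 0.31 (SE, edgeR adjusted p = 8.48e-05) in interstitial against BMDM. The call between the sorted groups held in all 19 alternatives.

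Gbp2 was at 24.2, 18.7 and 39.8 CPM in lining, 25.7, 31.5 and 25.7 CPM in interstitial and 13.2, 14.2 and 10.8 CPM in BMDM. It was higher in lining (1.10 ± 0.30 (SE, edgeR adjusted p = 0.0102)) and in interstitial macrophages (1.12 ± 0.29 (SE, edgeR adjusted p = 0.00801)) than in BMDM. All sorted libraries were above BMDM, and the sorted groups overlapped. Without BMDM I both calls ended (adjusted p = 0.0632 in lining and 0.0506 in interstitial macrophages).

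Irgm1, a regulator of the immunity-related GTPases, went the other way and was at 32.5, 45.3 and 27.8 CPM in lining, 55.0, 45.1 and 29.9 CPM in interstitial and 153, 139 and 150.1 CPM in BMDM. Its log2 fold change against BMDM was -2.04 ± 0.23 (SE, edgeR adjusted p = 2.56e-05) in lining and -1.78 ± 0.23 (SE, edgeR adjusted p = 6.54e-05) in interstitial macrophages. No sorted library reached BMDM. Igtp was not called, with -0.44 ± 0.34 (SE, edgeR adjusted p = 0.321) in lining and -0.33 ± 0.33 (SE, edgeR adjusted p = 0.451) in interstitial macrophages, and 5.06% of its 101-base stretches are shared with Irgm2.

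**Figure D3:**
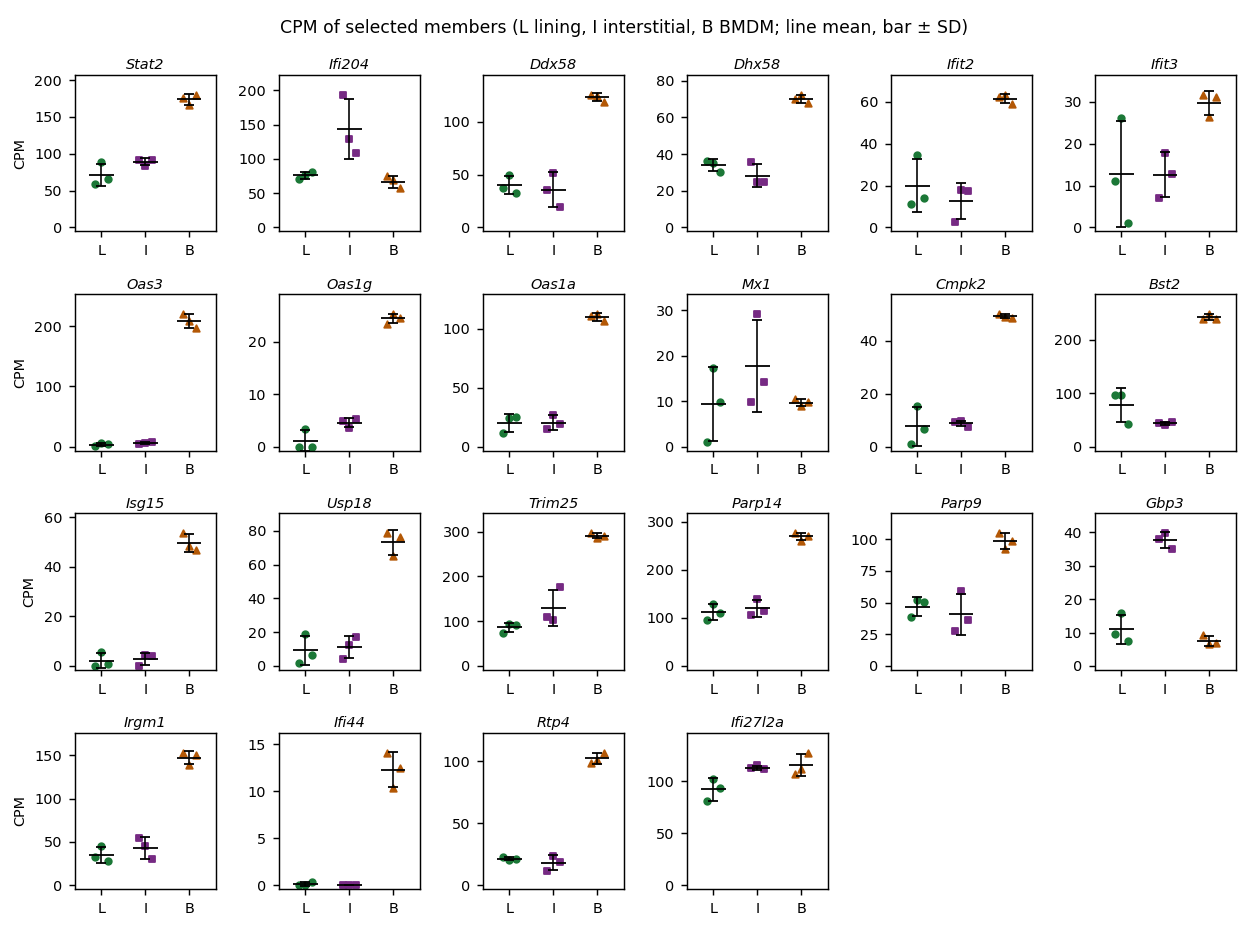
CPM of 22 selected members in each library, with the mean (line) and SD (bar) of 3 libraries; L is lining, I interstitial and B BMDM. Panels such as Oas3, Isg15 and Rtp4 show BMDM apart from both sorted groups, Gbp3 and Ifi204 show interstitial macrophages apart, and Mx1 shows overlap of all 3 groups.

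Among the 9 remaining genes, 8 were lower in lining and 7 in interstitial macrophages than in BMDM. Ifi44 (ENSMUSG00000028037, chr3:151730922-151749960, minus strand) was at 0, 0 and 0.375 CPM in lining, 0, 0 and 0 CPM in interstitial and 14.1, 10.3 and 12.5 CPM in BMDM. In lining this was 1 count against 806 in BMDM, a ratio of 189 for BMDM over lining, as pooled counts over pooled TMM-scaled library sizes, with a 95% counting interval of 33.8 to 7462. Interstitial libraries had no count, which puts Ifi44 at least 74.3-fold lower than in BMDM on the same pooled scale when 3 counts over the group are taken as the floor. The edgeR adjusted p was 0.000328 in lining and 0.000135 in interstitial macrophages. Ifi44 passed the low-count filter only through BMDM, so these p-values are not separate support for its lower level. Ifi44 was thus seen in BMDM and at or under the floor in both sorted groups.

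Rtp4, a receptor transporter protein gene, was at 22.8, 20.5 and 21.0 CPM in lining, 11.5, 23.8 and 19.1 CPM in interstitial and 98.5, 101 and 107 CPM in BMDM. Lining differed from BMDM by a log2 fold change of -2.26 ± 0.23 (SE, edgeR adjusted p = 8.66e-06), and interstitial macrophages by -2.44 ± 0.23 (SE, edgeR adjusted p = 4.12e-06). Every sorted library was far below BMDM, and 9.23% of its 101-base stretches are shared with an overlapping gene. Ifi27l2a was at 80.5, 103 and 93.1 CPM in lining, 113, 115 and 111 CPM in interstitial and 107, 112 and 128 CPM in BMDM, and was not called in lining (-0.32 ± 0.14 (SE, edgeR adjusted p = 0.0815)) or interstitial macrophages (-0.03 ± 0.14 (SE, edgeR adjusted p = 0.884)) against BMDM. Lining libraries lay just below the others without overlap. Leaving out B, D or F gave adjusted p of 0.0396, 0.0372 and 0.0416 for lining. An edgeR fit of only the 6 libraries compared gave 0.0469 for lining.

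Xaf1, a pro-apoptotic partner of the inhibitor XIAP, was lower in lining (-1.46 ± 0.26 (SE, edgeR adjusted p = 0.00071)) and in interstitial macrophages (-1.89 ± 0.26 (SE, edgeR adjusted p = 0.000103)). Ifi35 had -1.28 ± 0.21 (SE, edgeR adjusted p = 0.000392) in lining and -1.69 ± 0.21 (SE, edgeR adjusted p = 4.81e-05) in interstitial macrophages, and Sp100, a nuclear body protein gene, had -1.13 ± 0.20 (SE, edgeR adjusted p = 0.000697) in lining and -1.08 ± 0.20 (SE, edgeR adjusted p = 0.0009) in interstitial macrophages. The Schlafen genes Slfn5 and Slfn8 were lower as well, with -0.72 and -1.11 in lining and -0.66 and -1.24 in interstitial macrophages on the log2 scale. Phf11b was lower in lining (-2.14 ± 0.47 (SE, edgeR adjusted p = 0.00325)) and not called in interstitial macrophages (-1.02 ± 0.44 (SE, edgeR adjusted p = 0.0806)). For Phf11b, the lining value without B was -3.00, and the interstitial one was called without A or B (adjusted p = 0.0172 and 0.0412). The interstitial one was also called in an edgeR fit of only the 6 libraries compared (adjusted p = 0.00827).

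The spread of the members between lining libraries was wide. The median coefficient of variation of the 44 members over 3 libraries was 36.9% in lining, 27.7% in interstitial and 5.29% in BMDM, and that of all genes tested was 25.7% in lining, 28.1% in interstitial and 5.65% in BMDM. Because the groups share the estimate of spread of a gene, the comparison of the sorted groups also uses the narrower BMDM spread. Among the 6 sorted libraries, E was the highest for 15 members and B for 11, and A was the lowest for 21. B and E are also the deepest sorted libraries and A the shallowest, so library, depth and level cannot be told apart here. Against the mean of the 6 sorted libraries, the median member stood at 0.30 in B, 0.32 in E and -0.37 in A on the log2 scale, and the median gene at 0.07 in B, 0.05 in E and -0.01 in A. Without B and E, an alternative chosen after seeing the data, 36 members were lower and 1 higher in lining than in BMDM (20.4% of all genes each way), 28 were lower and 3 higher in interstitial macrophages than in BMDM (19.9% and 20.8% of all genes), and 3 were lower and 0 higher in lining than in interstitial macrophages (0.962% and 1.66% of all genes).

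The other genes of the interferon pathway were read from lists of the same kind. The transcripts for 10 interferon ligands amounted to 1 count, of Ifnb1 in BMDM, over all 9 libraries, so no fold was formed. Of 15 genes of the receptors and their signal transduction, 6 were higher and 2 lower in lining than in BMDM, and 7 were higher and 3 lower in interstitial macrophages. Over all genes tested, 23.1% were higher and 20.5% lower in lining than in BMDM, and 23.4% and 21.3% in interstitial macrophages. Socs3, a feedback inhibitor of cytokine receptors, was at 239.6, 344 and 329.6 CPM in lining, 346, 411 and 462 CPM in interstitial and 1.86, 2.09 and 1.80 CPM in BMDM. It was higher in lining (7.31 ± 0.22 (SE, edgeR adjusted p = 1.08e-09)) and in interstitial macrophages (7.72 ± 0.22 (SE, edgeR adjusted p = 8.13e-10)). Ifngr1, a chain of the interferon gamma receptor, had 1.80 ± 0.13 (SE, edgeR adjusted p = 5.49e-07) in lining and 1.38 ± 0.13 (SE, edgeR adjusted p = 4.42e-06) in interstitial macrophages, and Ifnar1 had 0.91 ± 0.14 (SE, edgeR adjusted p = 0.000203) in lining and 0.63 ± 0.14 (SE, edgeR adjusted p = 0.00256) in interstitial macrophages. Ifngr1 and Ifnar1 were thus higher in the sorted groups. Their partner chains were not called, Ifnar2 with 0.13 ± 0.17 (SE, edgeR adjusted p = 0.592) in lining and -0.18 ± 0.17 (SE, edgeR adjusted p = 0.416) in interstitial macrophages and Ifngr2 with 0.31 ± 0.20 (SE, edgeR adjusted p = 0.226) in lining and -0.36 ± 0.20 (SE, edgeR adjusted p = 0.16) in interstitial macrophages.

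Irf9, the DNA-binding partner of Stat2, was lower in both sorted groups. Irf9 was at 53.3, 49.0 and 56.3 CPM in lining, 61.2, 57.9 and 58.6 CPM in interstitial and 88.9, 80.3 and 92.3 CPM in BMDM, with -0.73 ± 0.14 (SE, edgeR adjusted p = 0.00162) in lining and -0.56 ± 0.14 (SE, edgeR adjusted p = 0.00711) in interstitial macrophages. Stat2 and Irf9 were thus both called lower than in BMDM.

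Of 15 genes that induce interferon, 4 were lower and 2 higher in lining than in BMDM, and 6 were lower in interstitial macrophages. These counts of few genes stand beside 20.5% lower and 23.1% higher of all genes in lining, and 21.3% and 23.4% in interstitial macrophages. No result about the list as a whole is read from them. Cgas, the cytosolic DNA sensor, was at 2.42, 7.25 and 6.38 CPM in lining, 6.21, 5.19 and 8.28 CPM in interstitial and 38.7, 38.4 and 40.0 CPM in BMDM, with -2.77 ± 0.35 (SE, edgeR adjusted p = 6.07e-05) in lining and -2.58 ± 0.35 (SE, edgeR adjusted p = 8.58e-05) in interstitial macrophages. Irf7, the factor that amplifies interferon transcription and is itself induced by it, was at 19.9, 33.4 and 19.9 CPM in lining, 9.75, 25.7 and 19.3 CPM in interstitial and 127, 121 and 116 CPM in BMDM, with -2.27 ± 0.29 (SE, edgeR adjusted p = 6.70e-05) in lining and -2.67 ± 0.30 (SE, edgeR adjusted p = 1.84e-05) in interstitial macrophages. All sorted libraries of both genes lay below BMDM. Between the sorted groups, Irf8 and the kinase gene Ikbke were higher in lining, at 0.90 ± 0.13 (SE, edgeR adjusted p = 0.00165) and 0.89 ± 0.21 (SE, edgeR adjusted p = 0.0298).

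A further list of 30 interferon-stimulated genes, of which 28 were tested, had 17 lower in lining and 17 lower in interstitial macrophages than in BMDM, with some genes of the lists above counted here as well. Of all genes tested, 20.5% were lower in lining and 21.3% in interstitial macrophages. The median log2 fold change of this list was -0.97 in lining and -0.89 in interstitial macrophages. Ifitm3, a membrane protein that blocks virus entry, was at 21.8, 43.7 and 39.8 CPM in lining, 189, 111 and 115 CPM in interstitial and 1022, 949.7 and 1069 CPM in BMDM. It was lower in lining (-4.82 ± 0.28 (SE, edgeR adjusted p = 9.05e-08)) and in interstitial macrophages (-2.88 ± 0.25 (SE, edgeR adjusted p = 2.63e-06)) than in BMDM, and lower in lining than in interstitial macrophages (-1.93 ± 0.26 (SE, edgeR adjusted p = 0.000784)). Lgals9 was higher in lining than in interstitial macrophages (1.10 ± 0.16 (SE, edgeR adjusted p = 0.00126)).

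Of 14 genes associated with interferon gamma, 8 were tested. In each sorted group 4 were higher and 1, Irgm2, was lower than in BMDM. The share of all genes was 23.1% higher and 20.5% lower in lining, and 23.4% and 21.3% in interstitial macrophages. With 8 genes tested, the list is too short to be set apart from these shares. Gbp7, next to Gbp3 in its gene cluster, was at 14.5, 24.1 and 34.2 CPM in lining, 47.4, 52.6 and 43.8 CPM in interstitial and 6.05, 6.91 and 5.86 CPM in BMDM, with 1.96 ± 0.29 (SE, edgeR adjusted p = 0.000191) in lining and 2.93 ± 0.29 (SE, edgeR adjusted p = 7.58e-06) in interstitial macrophages. Irf1, the transcription factor of the interferon gamma response, had 1.65 ± 0.33 (SE, edgeR adjusted p = 0.00219) in lining and 1.84 ± 0.33 (SE, edgeR adjusted p = 0.00102) in interstitial macrophages, and Ciita, the activator of class II genes, had 2.06 ± 0.60 (SE, edgeR adjusted p = 0.0158) in lining and 2.18 ± 0.60 (SE, edgeR adjusted p = 0.0109) in interstitial macrophages. For Ciita, libraries A and D were near the BMDM level at 6.31 and 5.32 CPM.

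**Figure D4:**
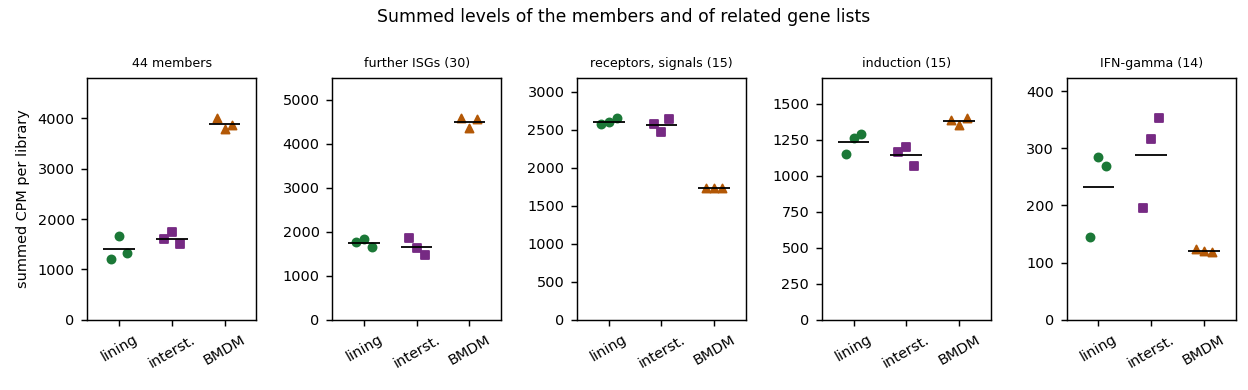
Summed CPM per library of the 44 members and of 4 further lists (number of genes listed in brackets), with points for libraries and a line at the mean of 3. The members and the further interferon-stimulated genes lie higher in BMDM, and the interferon gamma list is spread widely in the sorted groups. The sum of receptors and signal transduction lies higher in the sorted groups. Of its 15 genes, 6 were called higher and 2 lower in lining than in BMDM, and 7 and 3 in interstitial macrophages.

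Markers of other cells were read beside these results, since the libraries are bulk and fewer cells of a type cannot be told apart from less RNA per cell. Sums of 7 plasmacytoid dendritic cell genes were 237 to 276 CPM in lining, 212 to 334 in interstitial and 77.0 to 83.4 in BMDM. Most of this was Tcf4, though Siglech made up 106 of the 334 CPM in D, and Ccr9 was at 0 in A to E. Sums of 7 conventional dendritic cell genes were 3.88 to 40.9 CPM in lining, 89.3 to 144 in interstitial and at most 4.47 in BMDM, and Clec9a was at 0 in 5 of the 6 sorted libraries. Cd209a made up 115 of the 144 CPM in D. Zbtb46 was at 0.970 to 13.5 CPM in lining and 17.3 to 22.1 in interstitial. Flt3 overlapped, at 0 to 12.9 CPM in lining and 7.98 to 13.4 in interstitial. Sums of 7 monocyte genes were 1651 to 2016 CPM in lining, 3412 to 9130 in interstitial and 74.0 to 98.4 in BMDM, while Ly6c2 was at 0 in A, C and D. In the sorted libraries most of this sum was F13a1, at 1177 to 1582 CPM in lining and 3044 to 9071 in interstitial. Vcan ran the other way, at 283 to 386 CPM in lining and 5.32 to 21.2 in interstitial, and Ccr2 overlapped, at 46.1 to 165 CPM in lining and 52.8 to 158 in interstitial. Sums of 8 neutrophil genes were 0 to 6.78 CPM in lining, 0 to 80.3 in interstitial and 51.1 to 66.1 in BMDM, with Ly6g at 0 in 7 of 9 libraries. The conventional dendritic cell sum, though not each of its genes, and F13a1 were thus highest in interstitial libraries, as were Gbp3 and Ifi204. The part of the sum and of F13a1 in the results for Gbp3 and Ifi204 was not tested. Sums of 7 fibroblast genes were 170 to 303 CPM in lining, 191 to 692 in interstitial and 2.03 to 2.73 in BMDM, so the sorted libraries held more stromal transcripts than BMDM, and their part in the differences from BMDM was not tested either. The sums of 8 T and NK cell genes (19.9 to 52.4 CPM in lining, 25.1 to 45.2 in interstitial and 1.98 to 2.68 in BMDM) were nearly all Cd4, and Cd3e was at 0 in 8 of 9 libraries. B cell, endothelial, skeletal muscle and erythroid sums were at most 14.4, 50.7, 15.7 and 422 CPM in any library.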

How the data were processed

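The authors deposited 1 table of raw read counts per Ensembl gene. Per the file headers, featureCounts 1.6.1 assigned reverse-stranded reads to exons of GRCm38 (Ensembl release 91) without counting multi-mapping reads, which lowers counts of near-identical copies. STAR 2.5.4a, cutadapt 1.15, bcl2fastq 2.17.1.14 and DESeq2 1.20.0 under R 3.5.0 stand in the submitters' processing notes. Per the labels, stranded mRNA libraries from 500 ng RNA were read as single 101 bp reads. Groups follow the sample titles.

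Counts were tested with edgeR 4.0.16 (quasi-likelihood, TMM scaling, R 4.3.3) in 1 fit of all 9 libraries, after a filter on at least 10 counts and a total of 15. The 3 comparisons were adjusted over 12610 genes and called at 0.05. Each SE was derived as the fold change on the log2 scale divided by the root of its F statistic. Scripts were tested on simulated data. Of 53465 identifiers, 53274 had a symbol. Levels per kb use the table's exon length. The 19 alternatives include DESeq2 1.42.0 and limma 3.58.1.

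The members and gene lists were chosen with earlier results of these data known. Members given library by library are, in each of 10 role groups, those called between the sorted groups, the 2 called with the largest log2 fold change against BMDM and the 1 highest per kb, and others are given where a result turns on them. The result of 1 further gene of the pathway lists is not reported here.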

Additional observations from a re-analysis of the deposited data

Results flagged for a closer look

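In 2 members the effect against BMDM differed between the sorted groups, tested as the difference of the effects in edgeR, which equals the direct comparison of lining with interstitial macrophages because BMDM cancels. For Gbp3 the log2 effect was 0.58 in lining and 2.30 in interstitial macrophages, a difference of -1.72 (adjusted p = 0.00708). For Ifi204 it was 0.19 in lining and 1.10 in interstitial macrophages, a difference of -0.90 (adjusted p = 0.0233). In both, the 3 interstitial libraries were above the 3 lining and the 3 BMDM libraries.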

How the results depend on the processing

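In lining against interstitial macrophages, DESeq2 called 5 members lower and 1 higher, limma-voom 2 lower and 1 higher, limma-voom with group weights 1 lower and 0 higher, and a fit of the 6 sorted libraries alone 1 lower and 0 higher, against 2 lower and 0 higher in edgeR. Leaving out 1 library at a time gave 1 to 4 lower and 0 to 1 higher. In lining against BMDM the count of higher members ran from 0 to 1 on leaving out a library, and was 0 without BMDM I. The causes were not tested. Over all genes, DESeq2 called 709 higher and 589 lower in lining than in interstitial macrophages, against 471 and 259 in edgeR. limma-voom with group weights called 357 higher and 182 lower of 12610 genes, and the fit of the 6 sorted libraries 255 and 111 of 10830. Leaving out 1 library at a time gave 276 to 517 higher and 120 to 371 lower over all genes. The 4 lower members came without B, where 219 of 12760 genes were lower. Without BMDM I, 2061 of 12824 genes were higher in lining than in BMDM. Among the 19 alternatives, 28 of 33 calls in lining against BMDM and 29 of 31 in interstitial against BMDM were kept in every one, and no called member changed sign. Calls lost in at least 1 alternative were Ifih1, Ifit2, Rsad2, Isg20 and Gbp2 in lining and Zbp1 and Gbp2 in interstitial macrophages. Members not called against BMDM that gained a call in at least 1 alternative numbered 5 in lining and 8 in interstitial macrophages. Between the sorted groups the Gbp3 call was kept in all 19, and the Ifi204 call was lost in 6, with adjusted p up to 0.137. Where a library was left out, the other libraries of its group stand for its spread. Depth limits the sorted libraries most: 28 members passed the low-count filter on lining alone, 40 on interstitial alone and 44 on BMDM alone. No paired analysis was possible because the libraries are lettered A to I and no letter is shared between groups.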
